A study of Rattus norvegicus with 24 samples.

Results

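The genes described here are those of acetylcholine signalling in the rat brain: Chat, Ache and Slc5a7, which make, break down and recycle the transmitter, and Chrm1, Chrm2, Chrm3 and Chrm4, which encode 4 of the muscarinic receptors. Members were the probe sets to which the platform annotation of the deposited table gives 1 of these 7 symbols. It gave 7 probe sets for 6 of the 7 genes, where the annotation gave a single symbol to probe sets of 14217 genes in all. Chrm3 has 2 of them (1387462_at and 1369112_at), the other genes have 1 each (Chat 1373614_at, Slc5a7 1387543_at, Chrm1 1387736_at, Chrm2 1369245_at, Chrm4 1388191_at), and Ache was not analysed here.

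The 24 Affymetrix Rat RAE 230 2.0 arrays set 2 rat models of attention deficit hyperactivity disorder beside controls. The genetic model, the inbred spontaneously hypertensive rat (SHR), was compared with the Wistar-Kyoto rat (WKY), the strain it was bred from. Sprague-Dawley rats exposed to polychlorinated biphenyls (labelled SDpcb) were compared with unexposed Sprague-Dawley rats (SD). All 28 rats were male (8 SHR, 8 WKY, 4 SDpcb and 8 SD) and were 55 to 65 postnatal days old. The biphenyl mixture, its dose and the time of exposure are not given in the sources used here. Each strain group gave 1 array for each of 6 regions, which were dorsal and ventral striatum, hippocampus, prefrontal cortex, cerebellar vermis, and a midbrain piece of the substantia nigra and ventral tegmental area (VTA). Whether an array held RNA of 1 rat or of several is not stated. Within a strain group the regions came from 1 set of rats, so p-values for strain groups measure agreement between regions and not between animals.

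In cholinergic neurons, choline acetyltransferase (Chat) joins choline to acetyl-CoA, and the vesicular transporter Slc18a3 loads the product into vesicles. Acetylcholinesterase (Ache) splits released acetylcholine, and the high-affinity transporter Slc5a7 brings the choline back into the terminal. In the rodent striatum the main source is a sparse population of large interneurons, while cortex and hippocampus receive cholinergic axons from the basal forebrain, whose cell bodies lie elsewhere. Muscarinic receptors M1 and M3 couple to Gq and phospholipase C, whereas M2 and M4 couple to Gi and Go, which restrain adenylyl cyclase and open potassium channels.

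The deposited values are linear MAS5 signals, in arbitrary units with each array scaled to about the same trimmed mean (median over arrays 500.2). The median signal of an array over all probe sets lay between 131.67 and 178.19 in SHR, between 108.857 and 152.555 in WKY, between 89.0182 and 126.166 in SDpcb and between 130.704 and 183.798 in SD. The median probe set was dimmest on the SDpcb arrays. Region markers followed the labels: 6 of 6 tested medium spiny neuron genes were higher in each part of the striatum than in the other 5 regions, 5 of 5 granule and Purkinje cell genes in the vermis, 4 of 5 dopamine neuron genes in the substantia nigra/VTA, 3 of 4 hippocampal genes in hippocampus and 2 of 3 cortical genes in prefrontal cortex. Single arrays departed from their labels. The WKY prefrontal cortex array carried cerebellar transcripts, with Gabra6 at 2297, against 28.8 to 97.0 on the other prefrontal arrays, Cbln1 at 1091, against 48.4 to 63.5, and Pcp2 at 668, against 29.4 to 76.2. The SDpcb substantia nigra/VTA array was low in dopamine neuron transcripts, with Th at 217, against 1367 to 3742 on the other 3 arrays of that region, and Slc6a3 at 955, against 5916 to 8411. Results that rest on either array are also given without it, an alternative added after seeing the data. Tests ran on log2(signal + 1) in limma over 15521 probe sets whose mean signal reached 137.1, the median probe set's mean. Of the members, Slc5a7, Chrm4 and the brighter Chrm3 probe set (1387462_at) passed this filter, while Chat, Chrm1, Chrm2 and the dimmer Chrm3 probe set (1369112_at) did not.

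Only Chrm1 stayed under a signal of 100 on all 24 arrays, with a maximum of 92.9, and is near background by that rule. Chat exceeded 100 on 1 array, the dimmer Chrm3 probe set on 4 and Chrm2 on 5. Slc5a7 exceeded it on 13 arrays, and Chrm4 and the brighter Chrm3 probe set on 17 each. The mean signal of Chrm4 (228.8) was above that of 60.3% of all probe sets, and the mean of Chrm1 (17.5) above that of 2.66%. A dim probe set bounds nothing about the transcript itself: M1 is known as an abundant receptor of rodent forebrain.

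Slc5a7 and Chrm4 were the members with a striatal pattern that passed the test, and Chat, an enzyme of the same interneurons as Slc5a7, is shown with them. Their promoters, from 250 bases before to 50 bases after the annotated start, were taken from RefSeq (GRCr8), which held promoters for all 7 genes. They are Slc5a7 at chr9:7953460-7953759 on the minus strand, Chrm4 at chr3:98348830-98349129 on the plus strand and Chat at chr16:7723367-7723666 on the minus strand. Each is written 5′ to 3′ along the gene, and capitals mark matches to any of 5 searched motifs.
Slc5a7: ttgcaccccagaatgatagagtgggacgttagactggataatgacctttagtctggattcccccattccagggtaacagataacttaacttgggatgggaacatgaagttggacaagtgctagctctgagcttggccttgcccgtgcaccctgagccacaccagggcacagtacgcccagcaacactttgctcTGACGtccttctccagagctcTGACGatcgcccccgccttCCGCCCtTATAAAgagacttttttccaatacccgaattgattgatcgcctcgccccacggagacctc
Chrm4: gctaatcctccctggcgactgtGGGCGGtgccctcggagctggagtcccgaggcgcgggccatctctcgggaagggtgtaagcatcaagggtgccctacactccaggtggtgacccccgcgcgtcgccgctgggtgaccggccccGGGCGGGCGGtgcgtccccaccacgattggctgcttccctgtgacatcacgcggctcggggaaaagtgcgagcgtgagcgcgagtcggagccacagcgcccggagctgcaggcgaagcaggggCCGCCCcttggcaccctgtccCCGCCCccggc
Chat: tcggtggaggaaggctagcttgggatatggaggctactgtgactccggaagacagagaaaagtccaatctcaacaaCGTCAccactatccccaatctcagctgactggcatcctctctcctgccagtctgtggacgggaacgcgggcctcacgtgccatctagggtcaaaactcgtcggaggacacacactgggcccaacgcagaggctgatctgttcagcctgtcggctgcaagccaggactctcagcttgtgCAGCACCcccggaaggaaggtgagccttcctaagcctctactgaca

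The motifs, searched on both strands with overlaps allowed, were a TATA box (TATAAA), a GC box (GGGCGG), the core of the cyclic AMP response element (TGACG), the core letters of the RE1 element (CAGCACC) and a homeodomain core (TAATTA). Slc5a7 held a TATA box with its first base 10 bases before the start, a match found in 14.2% of 33469 promoters, and a GC box beside it on the minus strand. It also held 2 cores of the cyclic AMP element (21.2% of promoters), which begin 57 and 36 bases before the start. Chrm4 held 5 GC boxes, of which 2 overlap, a motif found in 33.1% of promoters, and none of the other motifs. Chat held the RE1 core, 5 bases after the start (6.78% of promoters), and a core of the cyclic AMP element. The homeodomain core (5.36% of promoters) was in none of the 7. These matches describe letters and not binding.

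Slc5a7, the choline transporter, had its highest means in the 2 striatal regions. In SHR, however, the substantia nigra/VTA array (201) stood above the dorsal striatal one (134). In ventral striatum its signal was 264 in SHR, 448 in WKY, 404 in SDpcb and 322 in SD. In dorsal striatum it was 134 in SHR, 311 in WKY, 378 in SDpcb and 173 in SD. All 8 striatal arrays stood above every array of prefrontal cortex and hippocampus, where Slc5a7 ranged from 3.56 to 63.8 and from 12.1 to 45.9.

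The substantia nigra/VTA gave Slc5a7 signals of 201 in SHR, 275 in WKY, 117 in SDpcb and 109 in SD. In the vermis Slc5a7 was 122 in SHR, 40.8 in WKY, 19.4 in SDpcb and 18.0 in SD. By means over 4 arrays, the order ran from ventral striatum (359 ± 82.2, s.d.) and dorsal striatum (249 ± 115) to substantia nigra/VTA (176 ± 78.1), vermis (50.0 ± 49.0), prefrontal cortex (34.8 ± 25.5) and hippocampus (32.8 ± 15.9). Only the step between substantia nigra/VTA and vermis exceeded the larger s.d. of its 2 regions, and even there the ranges overlapped through the SHR vermis array.

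The 2 striatal regions together exceeded the mean of the other 4 by 2.62 ± 0.44 on the log2 scale for Slc5a7 (± the standard error of the limma fit, adjusted p = 5.8e-05). Slc5a7 averaged 304.2 on the 8 striatal arrays and 73.3 on the 16 others, so it reached the filter at 137.1 through its striatal signal. In the fit over all 31042 probe sets, which set no such condition, the difference was 2.62 ± 0.41 (adjusted p = 2.5e-05). Against the mean of the other 5 regions, Slc5a7 was higher in ventral striatum by 2.47 ± 0.55 (adjusted p = 0.00492) and in dorsal striatum by 1.72 ± 0.55 (adjusted p = 0.0290). It was lower in prefrontal cortex (-2.12 ± 0.55, adjusted p = 0.00718), hippocampus (-1.79 ± 0.55, adjusted p = 0.0380) and vermis (-1.41 ± 0.55, adjusted p = 0.0374). In substantia nigra/VTA the difference of 1.14 ± 0.55 did not pass (adjusted p = 0.118). The dorsal call ended without the WKY, SDpcb or SD arrays (adjusted p = 0.0993, 0.173 and 0.0629) and with quantile normalization (1.59, adjusted p = 0.0538), and the hippocampal one without any 1 of the 4 strain groups. The prefrontal call rested on the WKY array at 3.56, the one with the Gabra6, Cbln1 and Pcp2 signal given above. Without that array alone the Slc5a7 difference was -1.20 ± 0.50 (adjusted p = 0.110), and the part of cerebellar transcripts in it was not tested. The vermis call ended without SDpcb (-1.04) or SD (-1.06).

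Markers of brainstem motor neurons, which are cholinergic cells near the dissected midbrain, were measured beside the Slc5a7 values. Of 5 listed genes 3 had a probe set and 0 passed the filter, and their summed signal was 314.8 to 555.4 in substantia nigra/VTA, against 86.99 to 311.4 over the other regions. Prph, an intermediate filament of motor and other neurons, accounted for most of this, at 465 in SHR, 338 in WKY, 188 in SDpcb and 349 in SD. The other listed genes with a probe set, Phox2a and Isl1, were not highest there. Phox2a was 9.75 to 69.9 in substantia nigra/VTA and 30.1 to 107 in ventral striatum. Isl1 was 20.1 to 117 in substantia nigra/VTA and 88.6 to 174 in ventral striatum. The part of such cells in the Slc5a7 signal was not tested. In samples of whole tissue, fewer cells of a type and less RNA per cell cannot be told apart.

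Chrm4, the receptor carried by striatal medium spiny neurons and by cholinergic terminals in rodents, was the brightest member. Its dorsal striatal signal was 588 in SHR, 426 in WKY, 496 in SDpcb and 328 in SD. Its ventral striatal signal was 661 in SHR, 381 in WKY, 300 in SDpcb and 264 in SD. The lowest striatal array stood above the highest array outside the striatum, which was prefrontal cortex in SHR at 251.

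Outside the striatum Chrm4 was intermediate in prefrontal cortex, with 251 in SHR, 172 in WKY, 171 in SDpcb and 208 in SD. Hippocampus gave Chrm4 signals of 200 in SHR, 177 in WKY, 82.3 in SDpcb and 233 in SD. In substantia nigra/VTA it was 85.7 in SHR, 55.2 in WKY, 8.71 in SDpcb and 103 in SD, and in vermis 129 in SHR, 45.1 in WKY, 73.1 in SDpcb and 52.4 in SD. The means stepped down beyond the larger s.d. between ventral striatum (402 ± 180) and prefrontal cortex (201 ± 38.0), and between hippocampus (173 ± 64.7) and vermis (74.9 ± 38.0). Dorsal (459 ± 110) and ventral striatum, prefrontal cortex and hippocampus, and vermis and substantia nigra/VTA (63.1 ± 41.3) differed by less than that within each pair.

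In the limma fit, Chrm4 was higher in both striatal regions than in the other 4 by 2.02 ± 0.27 (adjusted p = 4e-06). Its mean was 430.5 on the striatal arrays and 128.0 on the others, so it too reached the filter through the striatum, and over all 31042 probe sets the difference had an adjusted p of 1.6e-06. Against the other 5 regions it was higher in dorsal striatum by 1.77 ± 0.35 (adjusted p = 5.6e-04) and in ventral striatum by 1.46 ± 0.35 (adjusted p = 0.00759). It was lower in substantia nigra/VTA (-2.14 ± 0.35, adjusted p = 4.2e-05, and -1.46 ± 0.28 without the SDpcb array of that region, adjusted p = 3.2e-04) and in vermis (-1.46 ± 0.35, adjusted p = 0.00123). Prefrontal cortex (0.36, adjusted p = 0.510) and hippocampus (0.01, adjusted p = 0.995) did not pass. The ventral call ended without the SHR or the WKY arrays (adjusted p = 0.0960 and 0.0817).

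Chrm3, the M3 receptor, had its highest means in hippocampus and prefrontal cortex on its brighter probe set. Its hippocampal signal was 366 in SHR, 224 in WKY, 348 in SDpcb and 374 in SD, and its prefrontal signal 381 in SHR, 318 in WKY, 397 in SDpcb and 199 in SD. In substantia nigra/VTA it was 251 in SHR, 160 in WKY, 138 in SDpcb and 121 in SD. Dorsal striatum gave 89.9 in SHR, 99.4 in WKY, 266 in SDpcb and 161 in SD, and ventral striatum 138 in SHR, 92.9 in WKY, 188 in SDpcb and 92.7 in SD. The vermis was lowest, with 86.0 in SHR, 103 in WKY, 28.5 in SDpcb and 69.0 in SD, and all 4 of its arrays stood below every array of hippocampus and prefrontal cortex.

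On the log2 scale this Chrm3 probe set was higher in hippocampus (1.18 ± 0.31, adjusted p = 0.0118) and prefrontal cortex (1.13 ± 0.31, adjusted p = 0.00948) and lower in vermis (-1.57 ± 0.31, adjusted p = 1.8e-04) than in the other 5 regions. It reached the filter through hippocampus and prefrontal cortex. In the limma fit over all 31042 probe sets, the adjusted p was 0.0177 in hippocampus, 0.0139 in prefrontal cortex and 2.0e-04 in vermis. The means of hippocampus (328 ± 70.2) and prefrontal cortex (324 ± 89.7) differed by less than their spread, as did those of substantia nigra/VTA (168 ± 58.1), dorsal striatum (154 ± 80.9) and ventral striatum (128 ± 45.6). The prefrontal call ended without SHR or WKY (adjusted p = 0.0507 and 0.0538), and the hippocampal one without SHR or SD (adjusted p = 0.0703 and 0.101). Both striatal regions against the other 4 gave -0.46 ± 0.24, which did not pass (adjusted p = 0.174). The dimmer Chrm3 probe set, fitted with no filter, was not called in these regions. It gave 0.61 in hippocampus (adjusted p = 0.645), 0.38 in prefrontal cortex (adjusted p = 0.690) and 0.15 in vermis (adjusted p = 0.819).

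**Figure D1:**
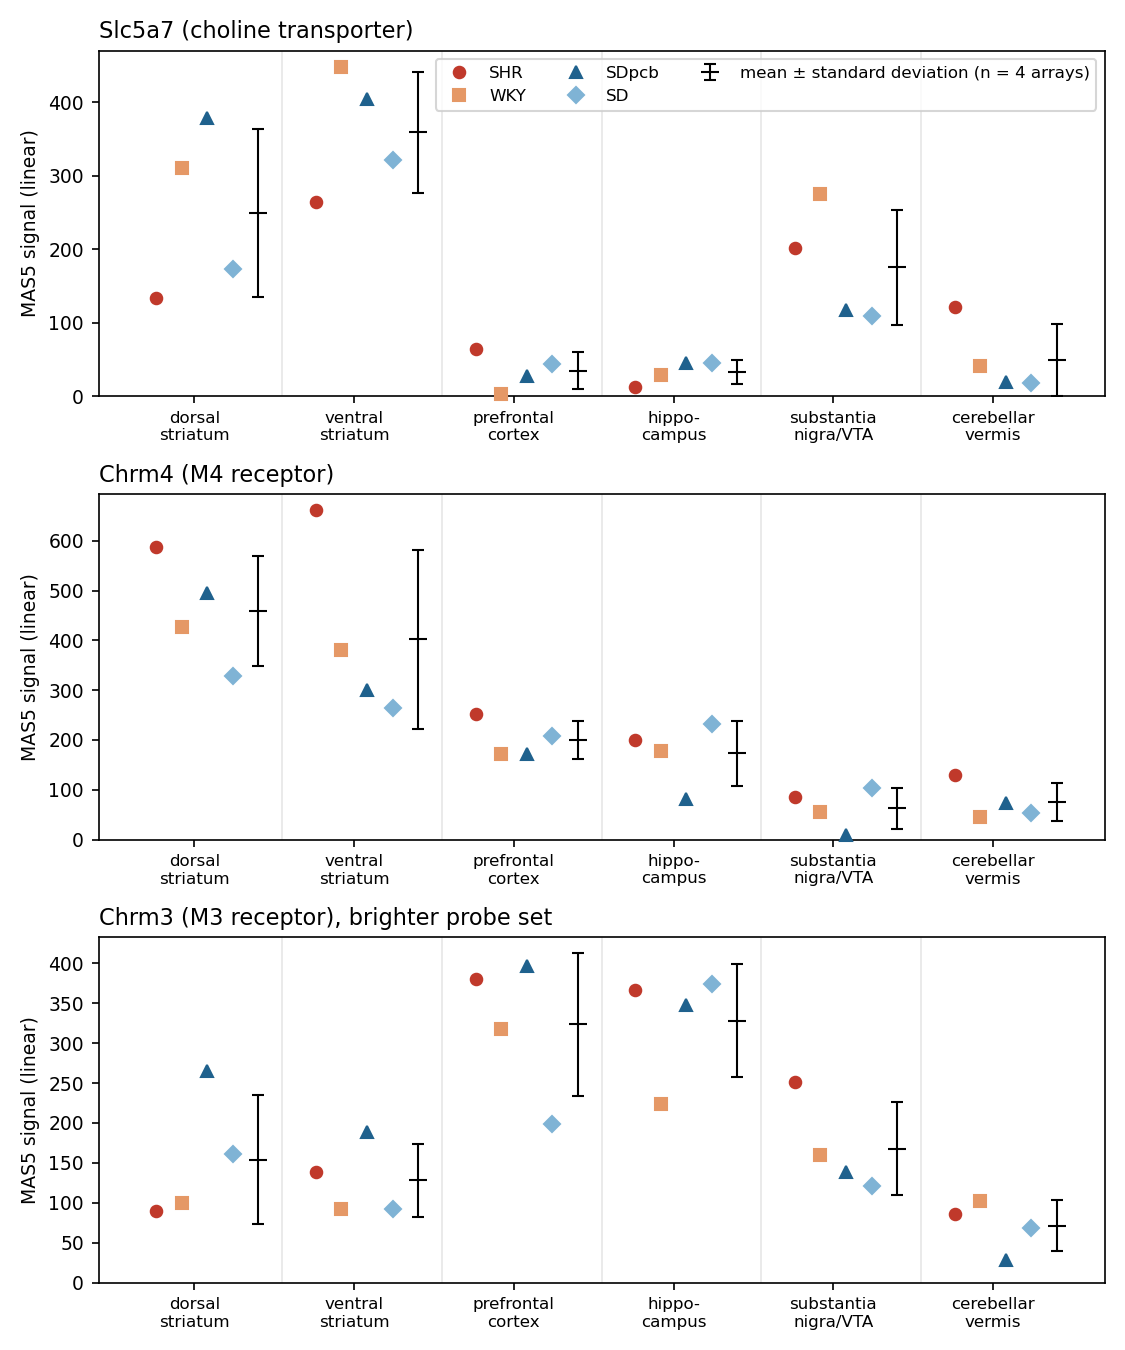
MAS5 signal (linear axis) of Slc5a7, Chrm4 and the brighter Chrm3 probe set in each of 24 arrays, by region and strain group, with the mean and standard deviation of the 4 arrays of a region at its right. By the mean of a region, Slc5a7 and Chrm4 are highest in the 2 striatal regions, and this Chrm3 probe set in prefrontal cortex and hippocampus.

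With no filter, all 7 member probe sets were in the fit and 2 of 7 (Slc5a7 and Chrm4) were called for both striatal regions against the other 4, where 3.88% of all 31042 were. The counts after the filter are given as a description, since Slc5a7 and Chrm4 reached it through their striatal arrays. The brighter Chrm3 probe set reached it through hippocampus and prefrontal cortex, where its means were 328.2 and 323.6. Among the 3 members that passed the filter, 2 were called in dorsal striatum (background 5.6%) and 2 in ventral striatum (2.21%). The counts were 2 of 3 in prefrontal cortex (background 5.06%), 2 of 3 in hippocampus (2.93%), 1 of 3 in substantia nigra/VTA (7.98%) and 3 of 3 in vermis (16.4%). For both striatal regions against the other 4, 2 of 3 were called (background 5.55%). Dorsal and ventral striatum did not differ in a called way: 0 of 3 passed in limma and 0 of 3 had an unadjusted p under 0.05, with 0.651% of probe sets called. The dorsal minus ventral differences were -0.62 for Slc5a7, 0.26 for Chrm4 and 0.19 for Chrm3 (adjusted p 0.895 to 0.945).

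**Figure D2:**
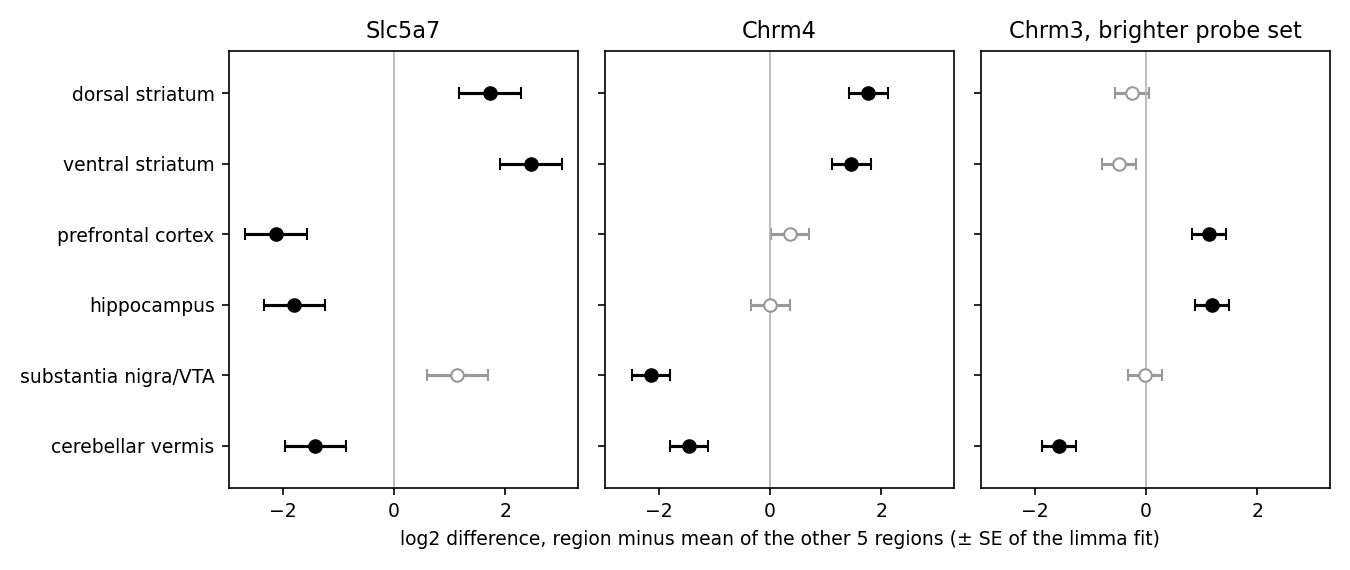
Log2 difference between each region and the mean of the other 5 regions for Slc5a7, Chrm4 and the brighter Chrm3 probe set, with bars giving the standard error of the limma fit. Filled black points passed an adjusted p of 0.05 with a log2 difference of at least 1, and open grey points did not.

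Chat, the synthesising enzyme, was dim. Its ventral striatal signal was 110 in SHR, 50.7 in WKY, 34.8 in SDpcb and 68.2 in SD, and its dorsal striatal signal 60.7 in SHR, 28.8 in WKY, 17.6 in SDpcb and 37.6 in SD. In prefrontal cortex Chat was 4.54 in SHR, 4.20 in WKY, 2.40 in SDpcb and 35.4 in SD, and in substantia nigra/VTA 9.50, 20.2, 10.1 and 3.45 in the same order of groups. Vermis arrays covered 4.54 to 86.3 and hippocampal arrays 20.7 to 57.9, so their ranges overlapped those of both striatal regions. In a fit over all 31042 probe sets, Chat was 1.46 ± 0.52 higher in the striatal regions than in the other 4, which did not pass (adjusted p = 0.0637). With quantile normalization the same difference was 1.52 (adjusted p = 0.0380).

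None of the 4 dim probe sets was called in this striatal contrast, where 3.88% of all 31042 were, and 2 of 4 had an unadjusted p under 0.05. Chrm2 gave 1.34 ± 0.58 (adjusted p = 0.143), the dimmer Chrm3 probe set -0.62 (adjusted p = 0.301) and Chrm1 -0.22 (adjusted p = 0.873). The vesicular transporter Slc18a3, whose gene lies within the Chat locus in rodents, was likewise below the filter. It reached 155 in SHR, 67.5 in WKY, 45.6 in SDpcb and 10.0 in SD in ventral striatum, and 108 in SHR, 92.5 in WKY, 103 in SDpcb and 17.7 in SD in dorsal striatum. Elsewhere Slc18a3 stayed between 2.61 and 37.8 except for 1 SD vermis array at 98.8. Of the 7 listed markers of cholinergic neurons besides the members, 4 had a probe set and 0 passed the filter. Their summed signal was 247.5 to 483.0 in dorsal and 336.2 to 703.3 in ventral striatum, against 226.1 to 443.3 in substantia nigra/VTA, 144.0 to 351.0 in vermis, 67.9 to 181.7 in prefrontal cortex and 97.6 to 172.7 in hippocampus. The striatal ranges of this sum overlapped those of substantia nigra/VTA and vermis and not those of prefrontal cortex and hippocampus. A single gene, Gbx2, was the largest part of the sum on each array of ventral striatum (160 to 332) and substantia nigra/VTA (85.8 to 288).

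**Figure D3:**
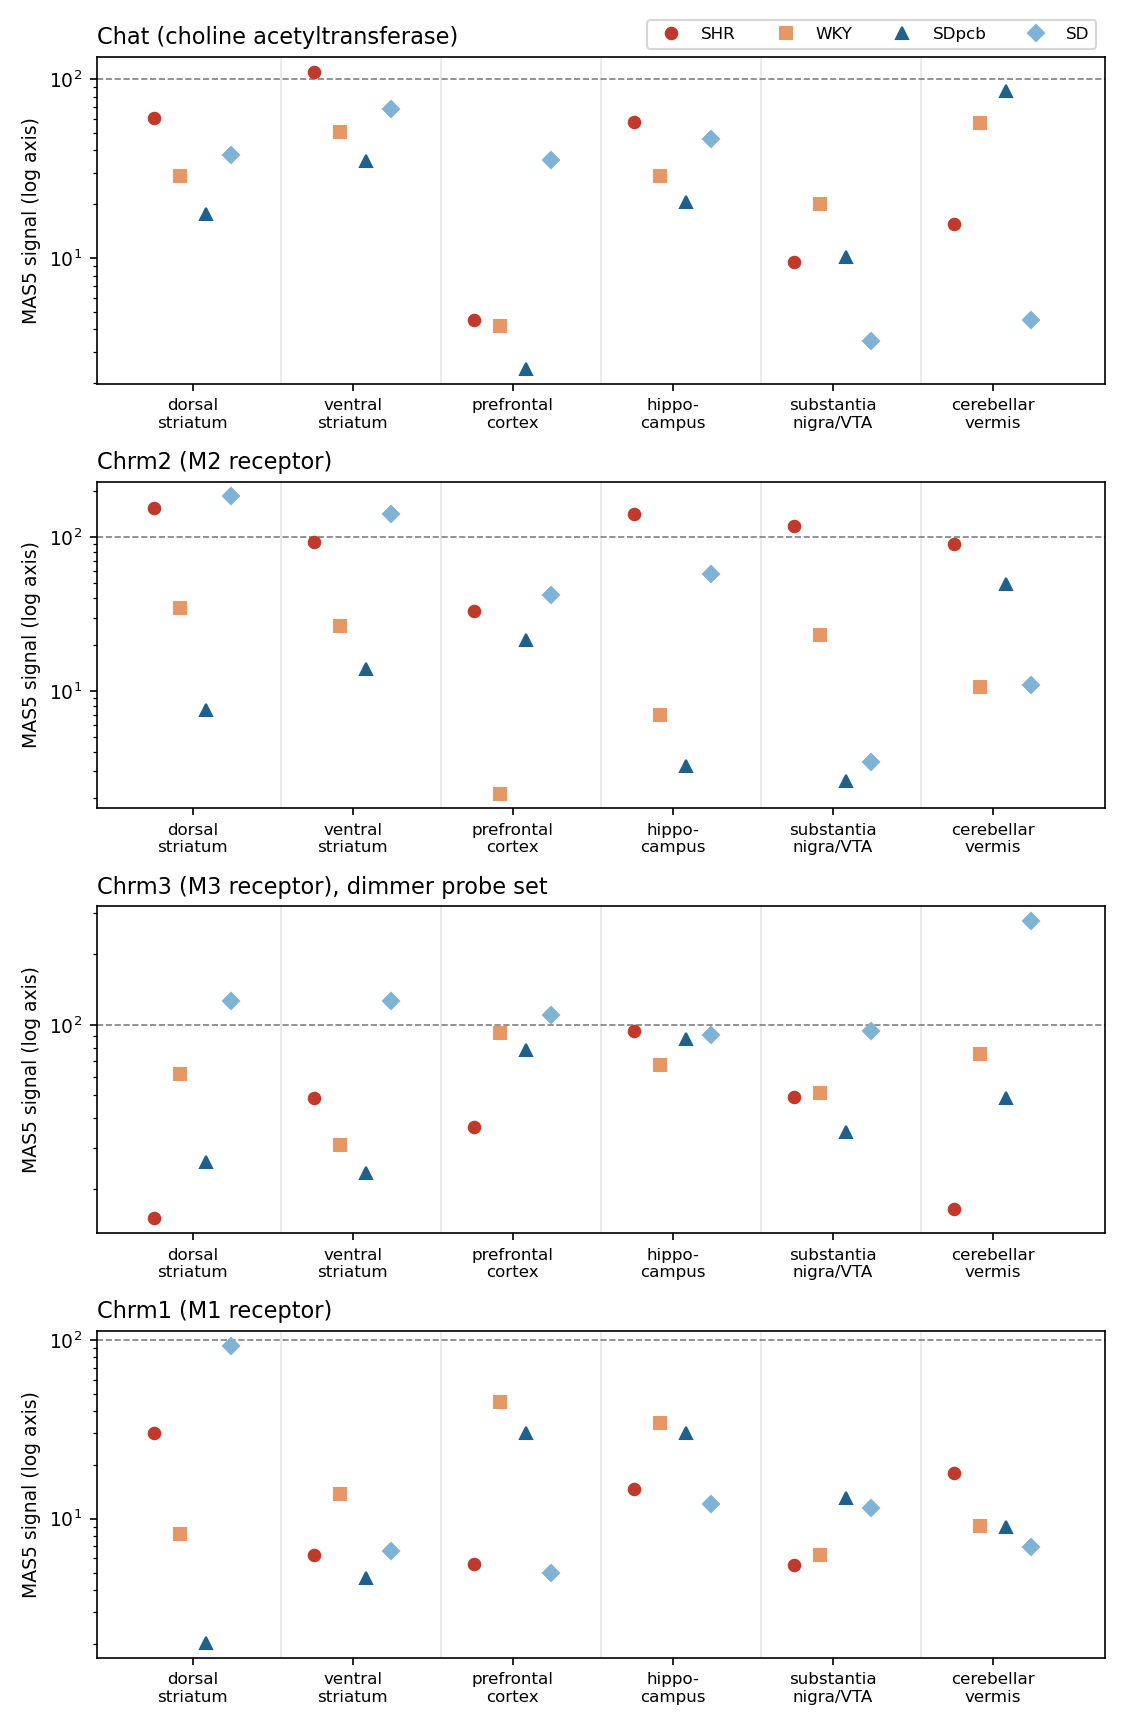
MAS5 signal (log axis) of the 4 member probe sets below the filter, by region and strain group, with a dashed line at a signal of 100. Chrm1 lies under the line on all 24 arrays, Chat on 23, the dimmer Chrm3 probe set on 20 and Chrm2 on 19.

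SHR and WKY did not differ in a called way for the 3 tested members. In limma 0 of 3 passed, against 32% of all tested probe sets, and 0 of 3 had an unadjusted p under 0.05. Chrm4 was higher in SHR than in WKY in 6 of 6 regions, with the smallest difference, 0.17 on the log2 scale, in hippocampus, and by 0.68 ± 0.36 in the fit (adjusted p = 0.154). The exact sign-flip permutation over the 6 regions gave p = 0.03125, two-sided and the smallest it can give. The array median was also higher in SHR than in WKY in each region, with 165.993 against 108.857 in hippocampus. Neither the count of regions nor the permutation was adjusted for this. A fit on the SHR and WKY arrays alone gave an adjusted p of 0.0233 for the same difference of Chrm4, and a fit without the SDpcb substantia nigra/VTA array, which left a smaller residual spread, 0.68 ± 0.26 (adjusted p = 0.0426).

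Slc5a7 was higher in SHR than in WKY in 2 of 6 regions (0.30 ± 0.58, adjusted p = 0.727), with differences from -1.20 in dorsal striatum to 3.83 in prefrontal cortex, and -0.32 ± 0.49 in the fit without the WKY prefrontal array (adjusted p = 0.670). The brighter Chrm3 probe set was higher in 4 of 6 (0.30 ± 0.32, adjusted p = 0.509). The median over all tested probe sets was 0.04 in this comparison.

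The largest strain difference among the members was that of Chrm2, the M2 receptor, a presynaptic brake on acetylcholine release, which lay below the filter. Its signal in SHR was 155 in dorsal striatum, 92.9 in ventral striatum, 33.0 in prefrontal cortex, 142 in hippocampus, 117 in substantia nigra/VTA and 89.9 in vermis. In WKY it was 34.7, 26.3, 2.14, 6.96, 22.9 and 10.6 in the same regions. SHR was higher in 6 of 6 regions, although the lowest SHR array fell just under the highest WKY array.

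Over all 31042 probe sets, of which 22.5% were called in this comparison, Chrm2 was 2.80 ± 0.77 higher in SHR than in WKY (adjusted p = 0.0108, exact sign-flip p = 0.03125). It was the 1 called among the 4 dim members. Array brightness moved the same way, with array medians of 152.9 ± 17.0 in SHR and 121.1 ± 16.2 in WKY (s.d., n = 6), and the median log2 difference of all 31042 probe sets was 0.21. With the array median as a covariate the Chrm2 difference was -0.42 (adjusted p = 0.893), and without the hippocampal arrays it was 2.52 (adjusted p = 0.0505). Without the WKY prefrontal array it was 2.40 (adjusted p = 0.0392). Markers of meninges also moved with the strains: 5 of 6 were higher in SHR (median 1.42), with summed signals of 3797 to 18430 in SHR and 2068 to 6872 in WKY. All 3 microglial markers were higher in SHR (median 1.01), as were 2 of 2 endothelial, 2 of 3 astrocyte and 2 of 4 oligodendrocyte markers. The marker counts are calls in the filtered fit, where 32% of all tested probe sets were called. Of 3 blood markers 2 had a probe set, and their summed signal was 4705 to 10920 in SHR and 1232 to 3363 in WKY, with no overlap; the 1 tested, the haemoglobin gene Hbb, was higher in SHR by 1.71 ± 0.12. The part of these in the Chrm2 difference was not tested.

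**Figure D4:**
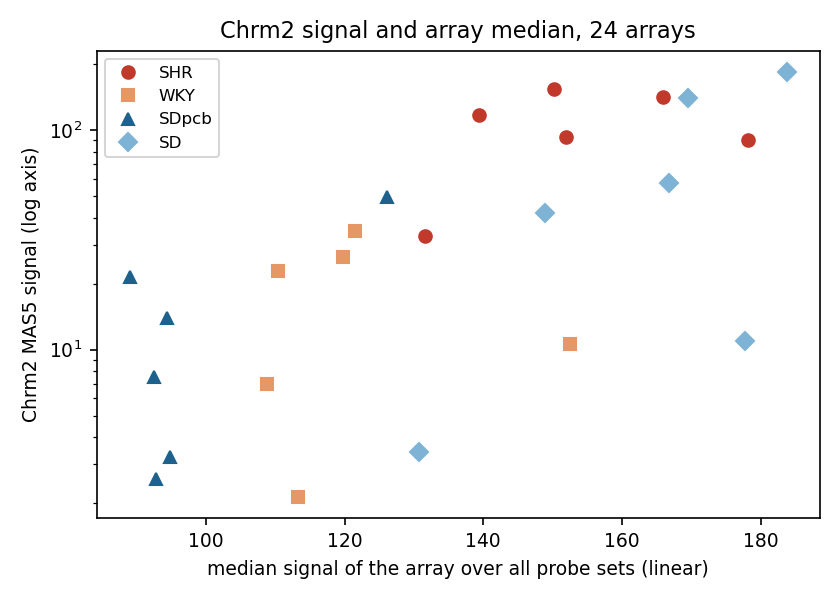
Chrm2 MAS5 signal (log axis) against the median signal of the same array over 31042 probe sets (linear axis), 24 arrays, by strain group. SHR arrays, with medians from 131.67 to 178.19, lie right of most WKY arrays and above most of them.

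Biphenyl exposure gave no call among the tested members: 0 of 3 passed in limma for SDpcb minus SD, against 32.2% of tested probe sets, and 0 of 3 had an unadjusted p under 0.05. Slc5a7 differed by 0.16 ± 0.58 (adjusted p = 0.859), the brighter Chrm3 probe set by 0.26 ± 0.32 (adjusted p = 0.569) and Chrm4 by -0.66 ± 0.36 (adjusted p = 0.176). Chrm4 was higher in SDpcb in 3 of 6 regions, and its largest differences were -1.49 in hippocampus and -3.42 in substantia nigra/VTA. With each array centred on its median, the brighter Chrm3 probe set differed by 0.99 (adjusted p = 0.00914).

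The dimmer Chrm3 probe set was lower in SDpcb than in SD in 6 of 6 regions, and the groups did not overlap. The array medians of these groups did not overlap either, at 89.0182 to 126.166 in SDpcb and 130.704 to 183.798 in SD. How many of all probe sets separate the groups in this way was not counted. In SDpcb this Chrm3 probe set was 26.0 in dorsal striatum, 23.3 in ventral striatum, 77.8 in prefrontal cortex, 87.1 in hippocampus, 35.0 in substantia nigra/VTA and 48.7 in vermis. In SD it was 126 in dorsal striatum, 126 in ventral striatum, 110 in prefrontal cortex, 90.6 in hippocampus, 94.0 in substantia nigra/VTA and 276 in vermis. Over all 31042 probe sets, of which 35.7% were called, it fell by 1.51 on the log2 scale (standard error 0.46, adjusted p = 0.0134), and the median of all probe sets was -0.37. The call ended with quantile normalization (-0.55, adjusted p = 0.481), with the array median as a covariate (-0.23, adjusted p = 0.985) and without the ventral striatal arrays (-1.33, adjusted p = 0.0542). Between these groups 2 of 2 endothelial markers were higher and 2 of 3 astrocyte and 2 of 4 oligodendrocyte markers lower in SDpcb. The marker counts are calls in the filtered fit, where 32.2% of all tested probe sets were called. The blood markers summed to 5763 to 14870 in SDpcb and 2978 to 5675 in SD, with no overlap, and Hbb was higher by 1.06 ± 0.12. Of 5 dopamine neuron markers 2 were lower in SDpcb, Th by -3.22 and Slc6a3 by -1.69. The part of these markers in the Chrm3 difference was not tested. The 2 Chrm3 probe sets thus differed in sign here, and across the 24 arrays their Pearson r was 0.10.

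Chrm2 had lower values in SDpcb than in SD in 5 of 6 regions and differed by -1.77 ± 0.77, which did not pass (adjusted p = 0.0720). Its SDpcb signals were 7.53 in dorsal striatum, 13.9 in ventral striatum, 21.4 in prefrontal cortex, 3.24 in hippocampus, 2.58 in substantia nigra/VTA and 49.9 in vermis. The SD signals were 184, 141, 41.9, 57.8, 3.42 and 10.9 in the same regions. The vermis ran the other way, with Chrm2 higher in SDpcb by 2.09. Without the vermis arrays the difference was -2.55 and without the substantia nigra/VTA arrays -2.07, and both then passed. With all arrays kept, 35.7% of all 31042 probe sets were called in this comparison. Array medians were also lower in SDpcb (98.29 ± 13.8, s.d.) than in SD (162.9 ± 19.7), and neither of these fits was adjusted for this.

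**Figure D5:**
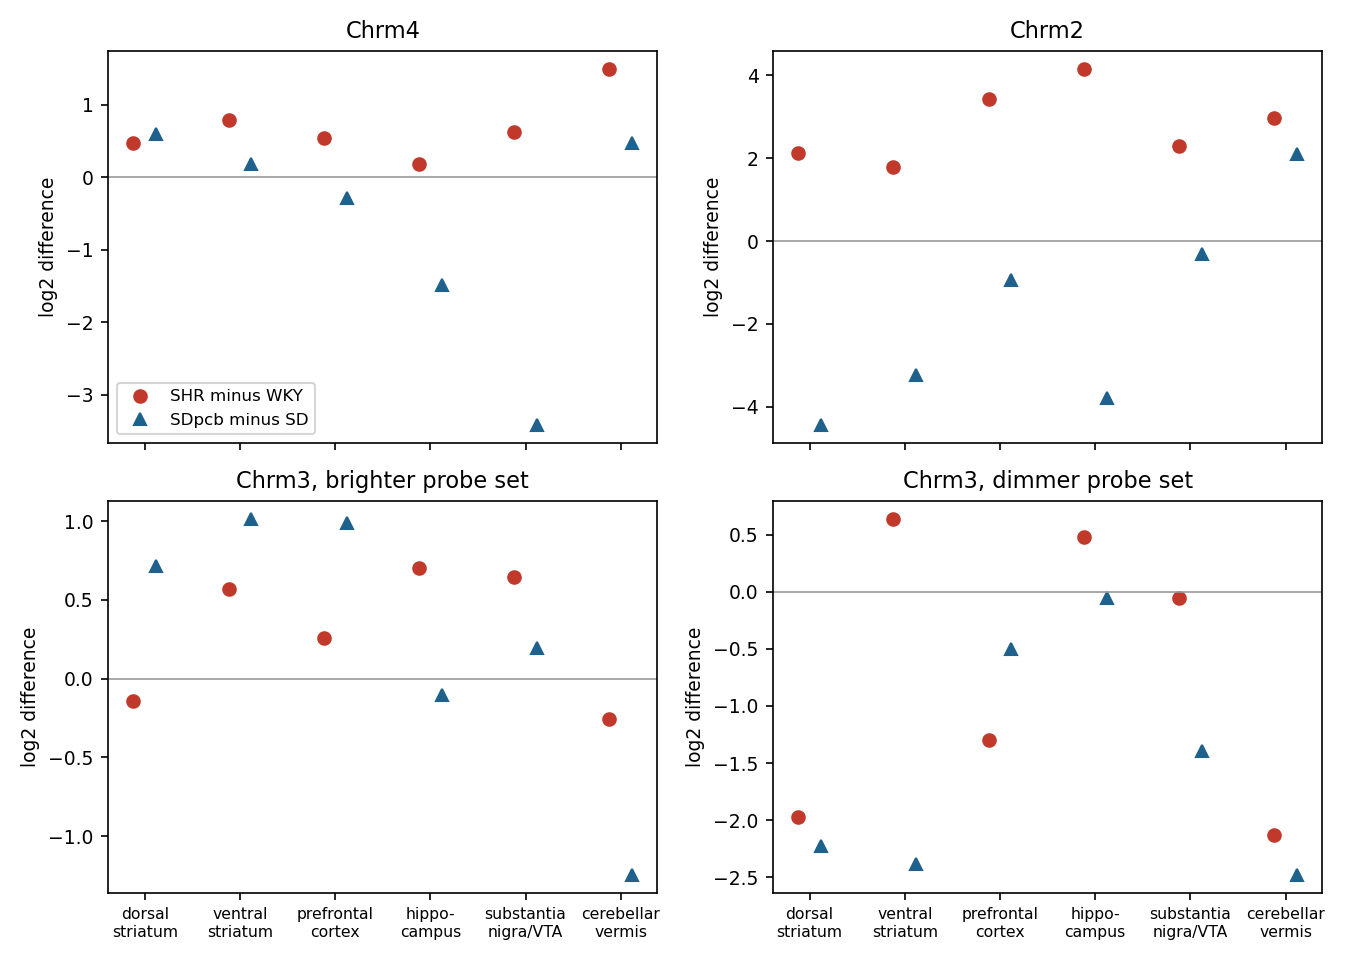
Within-region log2 differences, SHR minus WKY (circles) and SDpcb minus SD (triangles), for Chrm4, Chrm2 and both Chrm3 probe sets, with 1 difference per region and a separate vertical scale in each panel. Chrm4 and Chrm2 are above 0 in 6 of 6 regions for SHR minus WKY, and the dimmer Chrm3 probe set is below 0 in 6 of 6 for SDpcb minus SD.

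Whether the genetic and the exposure model differ was tested as the SHR minus WKY difference minus the SDpcb minus SD difference. Chrm4 was the 1 called of 3 tested members, against 40.7% of all tested probe sets, with 1.34 ± 0.51 (adjusted p = 0.0410). Slc5a7 (0.14, adjusted p = 0.908) and the brighter Chrm3 probe set (0.04, adjusted p = 0.958) did not pass. The Chrm4 value depended on the SDpcb substantia nigra/VTA array at 8.71: without that array it was 0.89 ± 0.37 (adjusted p = 0.0630) and without that region 0.80 (adjusted p = 0.110). This is the array with the low Th and Slc6a3 signals given above, and the part of its cell content in the Chrm4 value was not tested. Without the WKY prefrontal array the difference was 1.31 ± 0.54 (adjusted p = 0.0630). It was 1.49 without ventral striatum, 1.44 without prefrontal cortex and 1.28 without hippocampus, each no longer past the threshold, and 0.66 with quantile normalization (adjusted p = 0.316). Over all 31042 probe sets, of which 42.6% were called and whose median was 0.60, Chrm2 was the 1 called of 4 dim members at 4.57 ± 1.09 (adjusted p = 0.00175), with 4.17 without the WKY prefrontal array (adjusted p = 0.00437) and -5.58 with the array median as a covariate (adjusted p = 0.604).

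Against unexposed SD, SHR gave 0 calls of 3 in limma (background 33.7%), with 0.54 ± 0.36 for Chrm4 (adjusted p = 0.263), 0.33 for the brighter Chrm3 probe set and 0.27 for Slc5a7. WKY gave 0 of 3 (background 18%), with -0.14 for Chrm4, 0.04 for Chrm3 and -0.03 for Slc5a7. In neither comparison did any of the 3 have an unadjusted p under 0.05. Over all probe sets the dimmer Chrm3 probe set was lower in SHR than in SD by -1.79 ± 0.46 (adjusted p = 0.00723, background 17.6%, lower in 5 of 6 regions), and -1.35 without the vermis arrays, no longer past the threshold. In WKY it was lower than in SD in 6 of 6 regions, by -1.07 ± 0.46 (adjusted p = 0.114, background 15.7%). SHR minus SD, WKY minus SD and SDpcb minus SD share the SD arrays, where this probe set stood at 276 in vermis.

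Strain differences specific to the striatum were tested as the mean difference over dorsal and ventral striatum less that over the 4 remaining regions. For SHR minus WKY, 0 of 3 passed in limma and 0 of 3 had an unadjusted p under 0.05, with 0% of all tested probe sets called. Slc5a7 gave -1.92 ± 1.23 in limma (unadjusted p = 0.134), and -1.01 without the WKY prefrontal array; its SHR values were below those of WKY in both striatal regions, hippocampus and substantia nigra/VTA and above them in prefrontal cortex and vermis. For SDpcb minus SD, 0 of 3 passed with 0.00644% of probe sets called. Chrm4 gave 1.57 ± 0.75 (adjusted p = 0.930) and was the 1 member of 3 under 0.05 before adjustment; without the SDpcb substantia nigra/VTA array it gave 0.93.

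Other genes of the pathway were read from fixed lists. All 16 nicotinic receptor subunits had a probe set and 0 passed the filter; their signals had a median of 28.8 and a maximum of 276, and 3 of 16 stayed under 100 on all arrays. Chrm5, which encodes M5, the remaining muscarinic receptor, was also below it, with a maximum of 151 in the SD vermis array. Of 15 genes for vesicle loading, cholinesterase anchoring and choline handling 5 were tested. By the region rule of limma 0 of 5 were called in each of the 6 regions, with 0 to 3 of 5 at an unadjusted p under 0.05. Slc44a2, a choline transporter-like protein, was higher in SHR than in WKY (0.60 ± 0.21, adjusted p = 0.0346). It was the 1 gene called of these 5 between those strains (background 32%). Pcyt1a, an enzyme of phosphatidylcholine synthesis, was higher in SDpcb than in SD (0.40 ± 0.10, adjusted p = 0.00443). It too was the 1 gene called of the 5 in its comparison (background 32.2%).

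Of 7 proteins that fold or modulate nicotinic receptors, 4 were tested and all 4 were called for SHR minus WKY (background 32%), 2 in each direction. Lynx1, a membrane-tethered brake on nicotinic receptors, was higher in SHR by 1.02 ± 0.21 (adjusted p = 0.00111), as was Ly6h (0.44 ± 0.15). The chaperones Ric3 (-0.46 ± 0.12) and Tmem35a (-0.38 ± 0.13) were lower in SHR than in WKY. For SDpcb minus SD 2 of 4 were called (background 32.2%), and both chaperones were higher in SDpcb, Ric3 by 0.54 ± 0.12 (adjusted p = 0.00101) and Tmem35a by 0.68 ± 0.13 (adjusted p = 4.5e-04). The difference between the models passed for Ric3 (-1.01 ± 0.16) and Tmem35a (-1.06 ± 0.19), with adjusted p of 7.4e-05 and 1.7e-04. The list's median was 0.03 for SHR minus WKY and 0.22 for SDpcb minus SD, against 0.04 and -0.01 over all tested probe sets.

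Downstream of M2 and M4, 9 of 13 genes were tested. Adcy5, the main adenylyl cyclase of medium spiny neurons, was 3.10 ± 0.30 higher in the striatal regions than in the other 4 (adjusted p = 2.2e-08), the direction of Chrm4. The potassium channel subunits Kcnj6 (-2.03 ± 0.18) and Kcnj3 (-1.01 ± 0.13), which M2-type receptors open, were lower there. These made 1 higher and 2 lower of 9, with a list median of 0.12, against 0.00 over all tested probe sets. For SHR minus WKY 2 of 9 were called (background 32%), with Gnai2 higher (0.53 ± 0.17) and Gnao1, the Go alpha subunit, lower (-0.35 ± 0.10). For SDpcb minus SD 4 of 9 were called (background 32.2%): Gnao1 (0.58 ± 0.10), Rgs4 (0.66 ± 0.13) and Rgs7 (0.36 ± 0.11) were higher and Gnb1 (-0.49 ± 0.08) lower.

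Downstream of M1 and M3, 6 of 12 genes were tested. Kcnq5, a subunit of the M-current channel that Gq-coupled receptors close, was higher in striatum (1.66 ± 0.09 against the other 4 regions), prefrontal cortex (1.16 ± 0.12) and hippocampus (1.01 ± 0.12) and lower in vermis (-3.00 ± 0.12) and substantia nigra/VTA (-1.81 ± 0.12). Plcb4, a phospholipase C of Purkinje cells, was higher in vermis (2.09 ± 0.24), as was Itpr1, the receptor that releases stored calcium (1.52 ± 0.09). Plcb1, the forebrain phospholipase C, was lower in vermis (-1.31 ± 0.16), the direction of the brighter Chrm3 probe set. In vermis these made 2 higher and 2 lower of 6 (background 16.4%). In substantia nigra/VTA 1 was higher, Plcb4 (1.02 ± 0.24), and 3 of 6 were lower (background 7.98%), with Itpr1 (-1.58 ± 0.09) and the protein kinase C gene Prkcb (-1.23 ± 0.08) beside Kcnq5, and the summed signal of the 10 genes with a probe set was 8501 to 11150 there, against 15990 to 37570 over the other regions. For SHR minus WKY, Plcb1 (-0.51 ± 0.17, adjusted p = 0.0230) and Kcnq5 (-0.34 ± 0.13, adjusted p = 0.0432) were lower in SHR. These 2 of 6 are near the 32% of all tested probe sets called in that comparison. For SDpcb minus SD 0 of 6 were called in limma and 0 of 6 had an unadjusted p under 0.05.

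The genes most like each member over the 24 arrays were taken from 8984 genes by Pearson r on log2 signals; arrays of a region or strain group share their source, so these are descriptions. Slc5a7 was closest to Syndig1l (r = 0.82), Gnal (0.81) and Slc35d3 (0.80), and Gnal encodes the G protein alpha subunit of striatal neurons. Chrm4 was closest to Cacnb3 (0.88), Lzts3 (0.87) and Pradc1 (0.87). The brighter Chrm3 probe set was closest to Cck (0.88), a neuropeptide of cortical and hippocampal neurons, Vxn (0.87) and Pgm2l1 (0.86). For Chrm2 the nearest were Gfpt2 (0.87), Alg8 (0.80) and Nckap5l (0.79), and for Chat C19h1orf131 (0.75), Cks2 (0.70) and Snrpd3 (0.68). Among the members themselves, the r of Chat with Slc5a7 was 0.28, the largest r was 0.52 between Chat and Chrm2, and the lowest was -0.47 between Slc5a7 and the dimmer Chrm3 probe set.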

How the data were processed

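RNA of 6 brain regions from 4 strain groups was hybridised to 24 Affymetrix Rat RAE 230 2.0 arrays. The deposited intensity values are MAS5 signals per the submitters' processing notes, from RNA purified with RNeasy columns and labelled with the Ovation kit per the labels' protocols. Signals were linear, and the 2% trimmed mean per array was close to 500.2. Scan dates, detection calls and the MAS5 version are not given in the sources used here; each probe set's background is thus not known. The single array per strain group and region limits the precision.

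Of 31099 probe sets, 57 controls were set aside, leaving 31042. A single gene symbol was annotated for 20826 of them, several for 436 and none for 9780. The analysis used log2(signal + 1). The 15521 probe sets whose mean signal was at least the median of 137.1 entered an additive model of region and strain group in limma (version 3.58.1, R 4.3.3) with 15 residual degrees of freedom. The empirical Bayes step used a mean-signal trend, tests were two-sided, and p-values were adjusted by Benjamini-Hochberg across these probe sets at 0.05. Region calls also needed a log2 difference of at least 1. The striatal terms came from a fit with 12 residual degrees of freedom. Members below the filter are given from the same fit over all 31042 probe sets. Adding 1 to the signal reduces log2 differences of dim probe sets, but these differences were also uncertain. For SHR minus WKY the standard errors of the fit were 0.46 to 0.77 for member probe sets below the filter. They were 0.32 to 0.58 for those above it. The chain was tested on simulated data.

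The members, lists, tests and most alternatives were chosen with earlier results of these data known. Named are all members, the 3 genes most correlated with each member that reached a signal of 100, and up to 4 called genes per list and comparison. Slc18a3, Prph and Chrm5 were named outside that rule, after their values were seen. RefSeq (GRCr8) supplied promoters.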

Additional observations from a re-analysis of the deposited data

Results flagged for a closer look

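The difference between the models was flagged for Chrm2 and Chrm4, because the test of the difference itself passed. The same test passed for 40.7% of the filtered and 42.6% of all probe sets. As given above, the Chrm2 difference changed sign with the array median as a covariate, and it did not pass there. The mean array median was 152.9 in SHR, 121.1 in WKY, 98.29 in SDpcb and 162.9 in SD. That covariate thus overlaps with strain group, and the fit separates the effects poorly. The Chrm4 call ended with quantile normalization and without the SDpcb substantia nigra/VTA array. For Chrm2 it was 4.57 on the log2 scale (limma over all 31042 probe sets, adjusted p = 0.00175), with SHR above WKY in 6 of 6 regions and SDpcb above SD in 1 of 6. For Chrm4 it was 1.34 (adjusted p = 0.0410), with SHR above WKY in 6 of 6 regions and SDpcb above SD in 3 of 6.

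Single arrays stood far from the rest of their group in 4 of 70 groups checked, where chance gives about 3.5 (1 in 20). Chrm1 was 92.9 in SD dorsal striatum, against 12.1 in the next of the 6 SD arrays. The brighter Chrm3 probe set was 224 in WKY hippocampus, below the other 3 hippocampal arrays at 348 or more. The dimmer Chrm3 probe set was 276 in SD vermis, against 126 in the next SD array. Chrm2 was 33.0 in SHR prefrontal cortex, below the other 5 SHR arrays at 89.9 or more.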

How the results depend on the processing

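Counts of called members (of 3 tested, or of 7 with no filter) were compared over normalization, centring, pseudocount, filter, covariate, array weights, fits of 2 strain groups and arrays left out. SHR minus WKY went to 1 of 7 with no filter (Chrm2), to 1 of 3 on the arrays of those 2 groups only (Chrm4) and, over arrays left out, to 0 to 1 of 3 (Chrm4, without the SDpcb substantia nigra/VTA array), where the main count was 0 of 3. SDpcb minus SD gave 1 of 3 with centring on the array median (Chrm3) and 1 of 7 with no filter, and SHR minus SD gave 1 of 7 with no filter, each against 0 of 3. The count for the difference between the models, 1 of 3 in the main fit, was 0 with quantile normalization, 0 with centring, 0 with cyclic loess and 0 with the median signal as covariate, 2 of 7 with no filter, and 0 to 1 with the arrays of 1 region or 1 single array left out; Chrm4 then ranged from 0.28 (centring, adjusted p = 0.651) to 4.19 (covariate, adjusted p = 0.331). With no filter, 22.5% of all probe sets were called for SHR minus WKY, 35.7% for SDpcb minus SD and 17.6% for SHR minus SD. For the difference between the models it was 42.6%. In the main fit these shares were 32%, 32.2%, 33.7% and 40.7%, in the same order. Shares for the other alternatives are not given here. Dorsal striatum gave 1 of 3 in place of 2 with quantile normalization (Slc5a7 lost), where the main fit called 5.6% of probe sets. Both striatal regions against the other 4 gave 1 of 2 in place of 2 of 3 with the filter on mean log2 signal, an alternative added after seeing the data, under which Slc5a7 was not tested. No member was left in the upper 25% of probe sets, so that alternative gave no value. Of 1162 single member values under an alternative, 991 kept direction and side of the threshold, 39 lost and 11 gained a call, 119 changed sign with neither value called, and 2 called values changed sign: Chrm2 for SHR minus WKY (-0.42) and for the difference between the models (-5.58), both with the median signal as covariate and no filter. Neither value was called under that covariate, which itself differed between the strain groups. The cause was not tested. The labels give no replicate numbers; arrays were paired by region, as a term in each fit and in the exact sign-flip test. The dim signal limits Chat, Chrm1, Chrm2 and the dimmer Chrm3 probe set.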
